A study of Sus scrofa with 12 samples.

Results

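The subcortical maternal complex is a protein assembly that lies under the plasma membrane of mammalian oocytes and early embryos. It was followed here as 7 listed maternal-effect genes, namely NLRP5, OOEP, TLE6, KHDC3L, PADI6, NLRP2 and NLRP14. The members were chosen by name, and the Ensembl identifiers of the pig files were paired with symbols through a name table. Of the 7, 3 were found among the 31908 identifiers: NLRP5 (ENSSSCG00000044019), OOEP (ENSSSCG00000004285) and PADI6 (ENSSSCG00000003484). TLE6, KHDC3L, NLRP2 and NLRP14 were not paired with an identifier and were not analysed here, so every statement below covers 3 of the 7 members.

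The libraries came from oocytes of prepubertal gilts, whose ovaries were collected at a slaughterhouse. Cumulus-oocyte complexes were cultured for 0h, 22h or 46h, the cumulus cells were stripped off, and 20 oocytes were pooled for each SMART-Seq2 library, with 4 libraries per time point. The study takes 0h as the germinal vesicle stage and 46h as metaphase II. For the stages it cites an earlier study by its authors, not these libraries. There, most oocytes were at a stage named Pre-MI at 24h. Not all had reached metaphase II at its last time point, which was earlier than 46h. The share in each pool is not known here, and the middle point is labelled 22h and called 24h in the design text. The maturation medium was based on TCM199 and held porcine follicular fluid, epidermal growth factor, the gonadotropins PMSG and HCG, and cysteine. The 0h oocytes had no culture in this medium beyond washing, so maturation, time in culture and exposure to hormones and growth factor cannot be told apart. The labels name no genotype or strain that differs between groups. Nothing in the labels says that the replicates came from separate animals, so p-values measure only the spread between these libraries.

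The proteins of the complex are made and stored during oocyte growth, and embryos of mice whose mothers lack NLRP5, OOEP, TLE6 or PADI6 stop at early cleavage. OOEP and KHDC3L carry KH domains, NLRP5 (also called MATER) is a NOD-like receptor with leucine-rich repeats, and TLE6 is a co-repressor relative. PADI6 is a member of the peptidylarginine deiminase family and is needed for the cytoplasmic lattices, fibrous arrays that store proteins such as tubulin, UHRF1 and the ubiquitin-conjugating enzyme UBE2D3. The fully grown oocyte is transcriptionally silent, and stored mRNAs are translated or degraded as meiosis proceeds.

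In RefSeq Sscrofa11.1, OOEP lies at chr1:53006898-53007877 on the minus strand and has 3 exons of 187, 180 and 80 coding bases. Its neighbour is KHDC3L at chr1:52996706-52999074, whose end lies 7823 bases from OOEP with 0 protein-coding genes between them. The OOEP coding sequence is shown because OOEP had the highest level and the largest fall of the 3 members. It is written 5′ to 3′ exon by exon, and the capitals mark exon 2, the middle one.
OOEP exon 1, chr1:53007691-53007877: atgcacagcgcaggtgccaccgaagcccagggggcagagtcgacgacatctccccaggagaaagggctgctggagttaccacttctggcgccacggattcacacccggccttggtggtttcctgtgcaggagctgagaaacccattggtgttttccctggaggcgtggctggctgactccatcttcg
OOEP exon 2, chr1:53007340-53007519: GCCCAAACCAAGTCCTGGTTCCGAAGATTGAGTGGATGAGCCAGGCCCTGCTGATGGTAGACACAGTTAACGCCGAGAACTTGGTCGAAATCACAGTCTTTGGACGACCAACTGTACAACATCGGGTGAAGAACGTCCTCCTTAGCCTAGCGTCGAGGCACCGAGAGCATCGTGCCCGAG
OOEP exon 3, chr1:53006898-53006977: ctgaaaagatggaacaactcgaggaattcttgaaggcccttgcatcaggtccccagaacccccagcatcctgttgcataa

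PADI6 lies at chr6:75969855-75987097 on the plus strand, with 16 exons and 2076 coding bases. NLRP5 lies at chr6:60375670-60418908, also on the plus strand, with 12 exons and 3288 coding bases. The RefSeq transcript of OOEP is 447 bases long and carries no annotated untranslated sequence, whereas those of PADI6 and NLRP5 are 2408 and 9531 bases long. FPKM divides by transcript length, and the gene models behind the deposited values are not given in the sources used here. The order of levels between members, and their ranks among all genes, therefore rest on lengths that were not checked. The 250 bases before the PADI6 start, at chr6:75969605-75969854, are shown because PADI6 fell together with OOEP between 22h and 46h. The capitals mark CANNTG, the letters that basic helix-loop-helix factors read, and the pattern is the same on both strands.
PADI6 upstream: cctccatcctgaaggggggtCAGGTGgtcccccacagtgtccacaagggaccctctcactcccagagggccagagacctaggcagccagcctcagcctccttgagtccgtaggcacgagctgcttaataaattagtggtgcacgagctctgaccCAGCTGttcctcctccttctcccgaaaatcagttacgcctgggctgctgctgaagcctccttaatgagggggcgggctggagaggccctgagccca
The window holds CANNTG 2 times, and that of NLRP5 holds it 4 times. Of the 19569 windows of protein-coding genes, 61.9% hold it at least 1 time and 28.4% at least 2 times, so these matches are a description of the sequence only.

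Each library gives FPKM, a fragment count scaled by transcript length and by the size of the library, for 31908 genes. Total FPKM ranged from 697468 to 802184, and 5819 to 7895 genes reached 1 FPKM in a library. The number of reads is unknown, so no counting interval can be given. Replicate 4 of 0h correlated least with its own stage (Pearson r 0.934 to 0.970 across genes). For members and related genes, results that rest on it are also given without it. Oocyte markers were abundant in all libraries, with a summed FPKM of 14671 to 34125 over the 11 matched genes. Most, but not all, moved with the members at 46h: of 10 tested, 7 were called lower at 46h against 0h and 6 at 46h against 22h. Several fell by more than any member, such as ZP3 (log2 fold change -5.07), FIGLA (-4.43) and GDF9 (-4.42) at 46h against 0h. OOSP2 (0.59), H1-8 (0.21) and BMP15 (-0.27) were not called in that comparison. After median-of-ratios scaling 1 oocyte marker was called higher there and 7 lower. At 22h against 0h 2 oocyte markers were called lower and 1 higher, BMP15 (0.95). Of the 15 matched cumulus and granulosa cell markers, 13 had a mean under 1 FPKM and summed to at most 0.76 FPKM in a library, and INHA, KRT8 and KRT18 were listed at 0 in all 12. VCAN, from the same list, was higher at 46h (126 FPKM) than at 0h (58.3 FPKM; log2 fold change 1.18, adjusted p = 0.00150), and STAR had a mean of 4.20 FPKM. Of 5 blood and immune markers, HBB, CD68 and CD14 were listed at 0 throughout, PTPRC had a mean of 0.0517 FPKM and LYZ 4.11 FPKM. The 4 matched endothelium and stroma markers summed to between 9.33 and 11.9 FPKM at 0h, between 6.79 and 22.5 at 22h and between 22.8 and 25.4 at 46h, where PECAM1 was called higher (log2 fold change 1.17) and COL1A1 was listed at 0. The part of the oocyte markers, VCAN and PECAM1 in the results was not tested.

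By FPKM, OOEP transcripts were among the most abundant of the germinal vesicle oocyte, and were called lower at 22h and again at 46h. PADI6 transcripts were called lower only after 22h. NLRP5 transcripts were low at each time point and were lowest at 46h. All 3 members were called lower at 46h than at 0h and at 22h, and 1 of 3, OOEP, was called lower at 22h than at 0h. Both 46h calls of NLRP5 were lost after median-of-ratios scaling and quantile normalization, and the 22h call of OOEP in 3 alternatives and without any of 3 libraries, as given with each gene. A gene was called when limma gave an adjusted p under 0.05 and the fold change passed 1.5. At 22h against 0h, 26.7% of the 7013 genes tested were called (18.9% lower, 7.84% higher), at 46h against 22h 42.4% (32.6% lower, 9.87% higher), and at 46h against 0h 55.9% (39.1% lower, 16.8% higher). The balance depended on scaling: after quantile normalization more genes were higher than lower at 46h against 22h (1882 and 1508) and at 46h against 0h (2823 and 1902). Without replicate 4 of 0h, the genes called higher at 22h against 0h went from 550 to 862. With so many genes called lower, the members are described mainly by the size of their change.

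**Figure D1:**
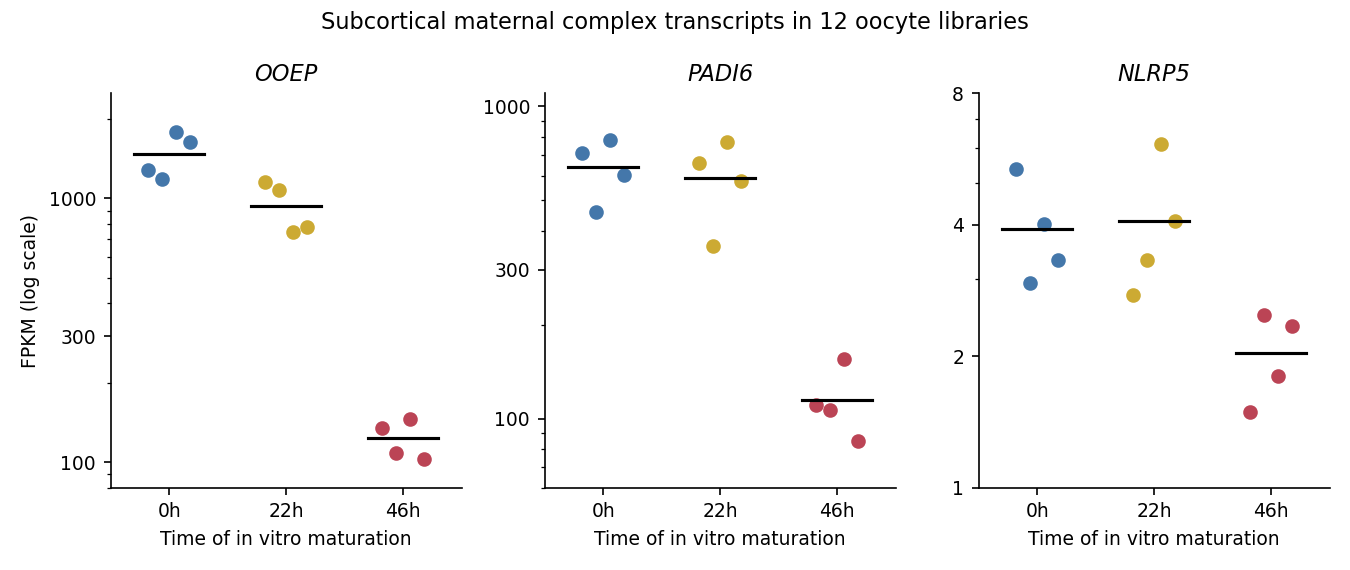
FPKM of OOEP, PADI6 and NLRP5 (log axes, which differ between panels) in the 12 libraries at 0h, 22h and 46h; each point is a library and each line the mean of 4. The 46h libraries lie below all earlier libraries for each gene, between 103.15 and 146.15 FPKM for OOEP, 84.95 and 155.66 for PADI6, and 1.49 and 2.49 for NLRP5.

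OOEP (also called FLOPED) is a KH-domain scaffold of the complex. Its level at 0h was 1283.97, 1184.13, 1786.30 and 1638.12 FPKM in replicates 1 to 4, a mean of 1473 ± 286 FPKM (SD, n = 4). At 22h it was 1157.37, 1079.33, 746.32 and 779.01 FPKM, a mean of 941 ± 208. All 22h libraries lay below all 0h libraries, and replicates 3 and 4 of 22h lay lower than the other two. At 46h the level was 134.72, 108.33, 146.15 and 103.15 FPKM, a mean of 123 ± 20.7, or 8.36% of the 0h mean. The 46h libraries lay far below the rest, with no overlap.

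The fold change of OOEP on the log2(FPKM + 1) scale was -0.65 (SE 0.20, adjusted p = 0.0240) at 22h against 0h. It was -2.91 (SE 0.20, adjusted p = 3.65e-08) at 46h against 22h and -3.56 (SE 0.20, adjusted p = 2.16e-09) at 46h against 0h. Only 4.58% of the 7013 genes tested had a more negative fold change at 46h against 0h, and 3.22% at 46h against 22h. The early fall was less firm than the late one. It was not called without the filter on low values (adjusted p = 0.0521), in a fit of the 2 stages alone (adjusted p = 0.0522), or as TPM without mitochondrially encoded genes (log2 fold change -0.57). It was also lost without replicate 3 of 0h (adjusted p = 0.0792), replicate 3 of 22h (0.0694) or replicate 4 of 22h (0.0736), all by limma.

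PADI6 had the second highest level of the members. At 0h it stood at 709.38, 460.11, 779.61 and 602.66 FPKM, a mean of 638 ± 139 FPKM (SD, n = 4). At 22h it stood at 660.13, 357.76, 768.66 and 577.91 FPKM, a mean of 591 ± 174. The ranges of 0h and 22h overlapped over most of their length, and replicate 2 was the lowest library in both stages. At 46h PADI6 stood at 110.26, 106.79, 155.66 and 84.95 FPKM, a mean of 114 ± 29.7, or 17.9% of the 0h mean. No 46h library reached the lowest earlier library.

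The fold change of PADI6 was -0.14 at 22h against 0h (95% confidence interval -0.68 to 0.41, adjusted p = 0.707), so a difference in either direction was not detectable. It was -2.34 (SE 0.25, adjusted p = 3.64e-06) at 46h against 22h and -2.48 (SE 0.25, adjusted p = 1.02e-06) at 46h against 0h. At 46h against 0h, 10.1% of the genes tested had a more negative fold change. OOEP and PADI6 were called lower at 46h, against either earlier stage, in every alternative and with any single library left out.

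NLRP5, the NOD-like receptor at the core of the complex, was a low transcript. Its level was 5.37, 2.95, 4.03 and 3.33 FPKM at 0h, a mean of 3.92 ± 1.07 FPKM (SD, n = 4). It was 2.77, 3.32, 6.14 and 4.08 FPKM at 22h, a mean of 4.08 ± 1.48, with replicate 3 the highest of all libraries. It was 1.49, 2.49, 1.80 and 2.35 FPKM at 46h, a mean of 2.03 ± 0.468, or 51.8% of the 0h mean. The 46h range lay below those of 0h and 22h, but by a narrow gap, from 2.49 to 2.77 FPKM.

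The fold change of NLRP5 was 0.03 (SE 0.22, adjusted p = 0.933) at 22h against 0h, -0.71 (SE 0.22, adjusted p = 0.0136) at 46h against 22h and -0.69 (SE 0.22, adjusted p = 0.0123) at 46h against 0h. At 46h against 0h, 37.7% of the genes tested had a more negative fold change, and the median of all genes was -0.25. The call depended on how libraries were scaled. After median-of-ratios scaling the fold change at 46h against 0h was -0.40 (adjusted p = 0.120), and after quantile normalization it was 0.0023 (adjusted p = 0.993). At 46h against 22h the values were -0.45 (adjusted p = 0.0915) and -0.21 (adjusted p = 0.433). The call at 46h against 0h was lost without replicate 1 of 0h (-0.56), and that at 46h against 22h without replicate 3 of 22h (-0.54), where the fold change came under 1.5. FPKM is relative to the RNA of a library, so less of a transcript per oocyte cannot be told apart from more of the other transcripts. The cDNA was primed with oligo-dT, which binds poly(A) tails. For every gene here, a change in transcript level therefore cannot be told apart from a change in its poly(A) tail, which was not measured.

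**Figure D2:**
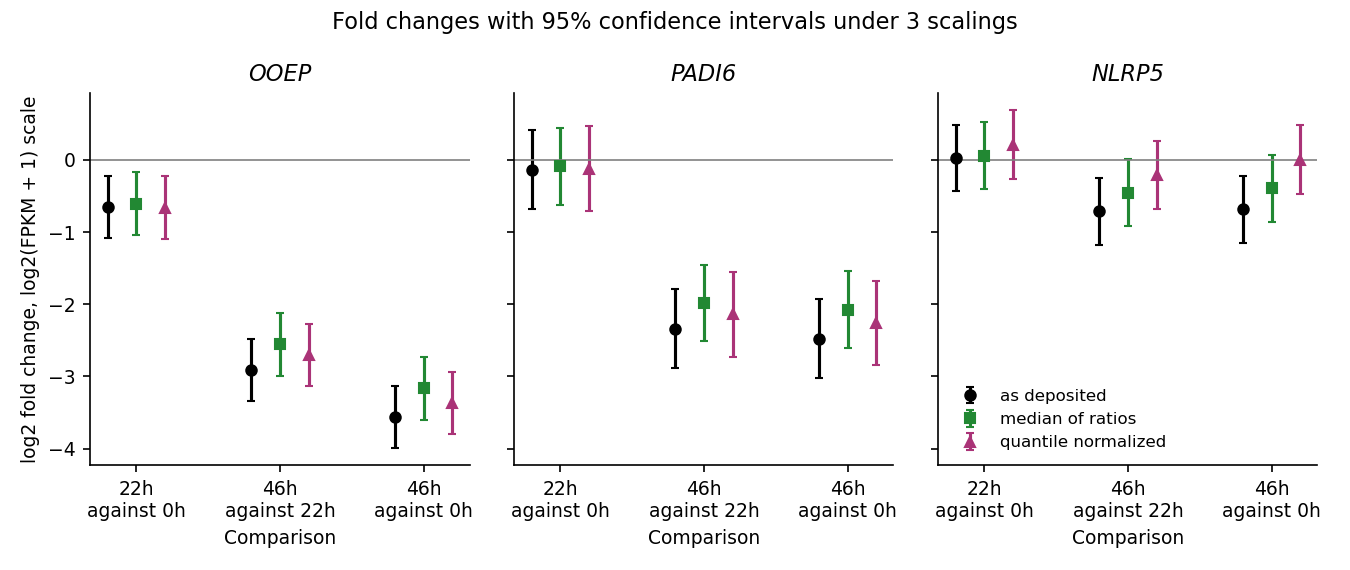
Log2 fold change with its 95% confidence interval (y axis, log2(FPKM + 1) scale) of OOEP, PADI6 and NLRP5 in the 3 comparisons, for values as deposited (circles), after median-of-ratios scaling (squares) and after quantile normalization (triangles). The 46h changes of OOEP and PADI6 stay below 0 with each scaling, while that of NLRP5 against 0h goes from -0.69 to 0.0023.

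Ranks within a library are not altered by scaling a whole library, but they rest on transcript lengths that were not checked. OOEP was between rank 59 and 86 of 31908 genes at 0h, between 86 and 131 at 22h and between 486 and 623 at 46h. PADI6 was between rank 126 and 222 at 0h, between 125 and 263 at 22h and between 460 and 697 at 46h, and its ranks overlapped with those of OOEP at 22h and 46h but not at 0h. NLRP5 was between rank 4082 and 5521 at 0h, 3853 and 5145 at 22h, and 4367 and 5277 at 46h. Its ranks overlapped across all 3 stages, although its FPKM at 46h lay below the ranges of 0h and 22h, which overlapped each other.

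Of the fall of its mean FPKM from 0h to 46h, OOEP had gone through 39.5% by 22h and PADI6 through 8.94%, while the mean of NLRP5 was 104% of its 0h mean at 22h. These differences between members at 22h did not pass an exact two-sided permutation test on log2 ratios. From 0h to 22h, OOEP over PADI6 changed by -0.52 (exact p = 0.229, adjusted p = 0.257). OOEP over NLRP5 changed by -0.68 (exact p = 0.2, adjusted p = 0.257) and PADI6 over NLRP5 by -0.16 (exact p = 0.543). With a library left out these changes ran from -0.81 to -0.27, from -0.92 to -0.40 and from -0.36 to -0.0044, and none passed. The change after 22h minus the change before it was -2.26 on the log2 scale for OOEP (SE 0.35, adjusted p = 0.000336) and -2.20 for PADI6 (SE 0.44, adjusted p = 0.00270). Both fell more in the later interval. This contrast was added after the values were seen, and it was below 0 and passed in 16.2% of all genes tested, some of which rose early rather than fell late. For NLRP5 it was -0.74 (SE 0.37, adjusted p = 0.177), and it ran from -0.999 to -0.385 with a library left out, without passing.

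Whether the members fell in proportion was tested on shares within a library. Summed over the 3 members, FPKM was 2115 ± 390 at 0h, 1536 ± 201 at 22h and 240 ± 48.5 at 46h (SD, n = 4). OOEP made up 69.7% ± 3.89 of the sum at 0h, 61.2% ± 10.9 at 22h and 51.7% ± 3.22 at 46h. PADI6 made up 30.2% ± 3.84, 38.5% ± 10.8 and 47.4% ± 3.30. NLRP5 made up 0.188% ± 0.0552, 0.272% ± 0.107 and 0.894% ± 0.343. From 0h to 46h the share of OOEP differed by -17.97 percentage points, and those of PADI6 and NLRP5 by 17.3 and 0.706 points. Each had p = 0.0286 in an exact two-sided permutation test, the smallest that 4 against 4 libraries can give, with an adjusted p over the 3 members of 0.0286. The shares of OOEP and PADI6 are near mirror images and count as 1 result, and adjusted over all 9 share tests none passed (exact adjusted p = 0.0643). That value is set by how many of the 9 tests reach the smallest p, so it says little about any single share. Adjusted over the 3 members of a comparison, as are the values that follow, the share of NLRP5 did not pass without replicate 3 or replicate 4 of 0h (exact adjusted p = 0.0571 for each). No share passed the test between 22h and 0h (exact adjusted p = 0.229 for each) or between 46h and 22h (exact adjusted p = 0.0857 for NLRP5 and 0.143 for OOEP and PADI6). Without replicate 2 of 22h the shares of OOEP and PADI6 passed at 22h against 0h, and without replicate 3 of 22h at 46h against 22h (exact adjusted p = 0.0429 for each).

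Ratios between members were also taken library by library. OOEP over PADI6 in FPKM was 1.81, 2.57, 2.29 and 2.72 at 0h, and 1.22, 1.01, 0.939 and 1.21 at 46h, so these stages did not overlap. At 22h the ratio was 1.75, 3.02, 0.971 and 1.35, which spans both. Replicate 3 of 22h, with the lowest ratio, had the lowest OOEP and the highest PADI6 and NLRP5 of its stage. The log2 ratio of OOEP over PADI6 changed by -1.09 from 0h to 46h, and those of OOEP over NLRP5 and PADI6 over NLRP5 by -2.88 and -1.79. Each of these had the smallest exact two-sided permutation p of 0.0286, and an adjusted p of 0.0514 over the 9 ratio comparisons, so none passed. At this smallest p the adjusted value is set by how many of the 9 comparisons also reach it. Not passing therefore says little about any single ratio. Without replicate 3 of 22h, the 3 comparisons of 46h with 22h had an exact adjusted p of 0.0429 each. For OOEP over PADI6 it was 0.214 with all libraries. OOEP over NLRP5 and PADI6 over NLRP5 were at the smallest p already. Their adjusted p fell only because more of the 9 comparisons reached that p, not because of their own values.

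**Figure D3:**
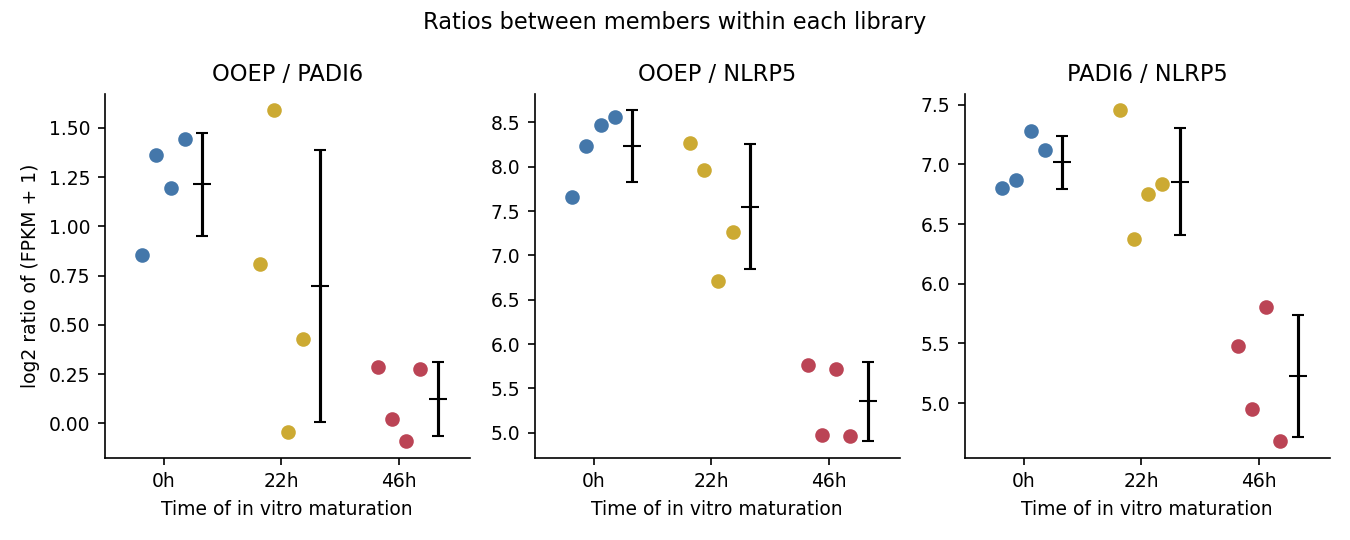
Log2 ratio of (FPKM + 1) between pairs of members within each library (y axis, scales differ between panels) at 0h, 22h and 46h; points are libraries, and the bars beside them are the mean and SD of 4. The ratio of OOEP to PADI6 lies between 0.86 and 1.44 at 0h, is widely spread at 22h, and lies between -0.09 and 0.29 at 46h.

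As a description over the 12 libraries, which share their stages, OOEP and PADI6 correlated with Pearson r = 0.947, NLRP5 and PADI6 with r = 0.798, and NLRP5 and OOEP with r = 0.685. Among 6109 other named genes, the patterns most like OOEP were those of TPRKB (r = 0.995), DNAJC15 (r = 0.993) and RPS25 (r = 0.992). TPRKB fell from between 46.60 and 59.52 FPKM at 0h to between 1.47 and 2.66 at 46h, and its 22h libraries showed the order of those of OOEP except for replicates 3 and 4. Most like PADI6 were AIDA (r = 0.981), NLRP8 (r = 0.981) and GTF3C2 (r = 0.974). NLRP8 shared with PADI6 its lowest 0h and 22h libraries, at 10.18 and 6.75 FPKM in replicate 2. Most like NLRP5 were SLC25A4 (r = 0.956), an ADP/ATP carrier of mitochondria, PEX19 (r = 0.943), which serves peroxisome assembly, and ANXA11 (r = 0.941). SLC25A4 had its highest library, 20.74 FPKM, in the same replicate 3 of 22h as NLRP5.

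Genes related to the members were taken from 7 lists of 75 genes, of which 62 were matched and 36 had a mean of at least 1 FPKM. Of these 36, 9 were called at 22h against 0h (3 higher, 6 lower), 18 at 46h against 22h (4 higher, 14 lower) and 22 at 46h against 0h (7 higher, 15 lower). At 46h against 0h these were 9 higher and 11 lower after median-of-ratios scaling, and 11 higher and 10 lower after quantile normalization. As deposited, the shares called lie near those of all genes given above.

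Among the NOD-like receptors, 12 of 16 listed were matched and 5 were tested, all of them NLRP genes. At 46h against 0h 1 rose, 2 fell and 2 were not called. NLRP8 stood at 12.39, 10.18, 14.13 and 12.74 FPKM at 0h and at 1.73, 1.64, 1.51 and 1.60 at 46h, without overlap (log2 fold change -2.34, SE 0.18, adjusted p = 6.49e-08). NLRP13 fell from 19.8 ± 3.87 to 10.8 ± 2.92 FPKM (-0.83, adjusted p = 0.00208), a call that was lost after median-of-ratios scaling (-0.45) and quantile normalization (-0.25). NLRP3, known as an inflammasome sensor, rose from 5.26 ± 1.15 to 9.66 ± 3.02 FPKM (0.73, adjusted p = 0.00853), although the ranges overlapped. Over the alternatives with all libraries the change of NLRP3 ran from 0.66 to 1.38, and it was called in each. NLRP9, named after its values were seen, was the most abundant, at 980 ± 319 FPKM at 0h, 847 ± 366 at 22h and 1175 ± 274 at 46h. Its fold change at 46h against 0h was 0.29 (adjusted p = 0.449). The change was 0.055 without replicate 4 of 0h, the lowest 0h library of NLRP9 at 568.18 FPKM. After median-of-ratios scaling it was 0.70, and NLRP9 was not called in any alternative. NLRP4, also named after its values were seen, stood at 37.6 ± 21.3 and 63.0 ± 14.7 FPKM at 0h and 46h (0.93, adjusted p = 0.148). Without replicate 4 of 0h, the lowest 0h library at 11.49 FPKM, the change of NLRP4 was 0.46. After quantile normalization NLRP4 was called higher (1.46, adjusted p = 0.0289), and with the lost call of NLRP13 the list then had 2 higher and 1 lower. After median-of-ratios scaling it had 1 higher and 1 lower. The 5 matched inflammasome partners were all under the filter, with PYCARD and IL18 listed at 0 in every library.

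**Figure D4:**
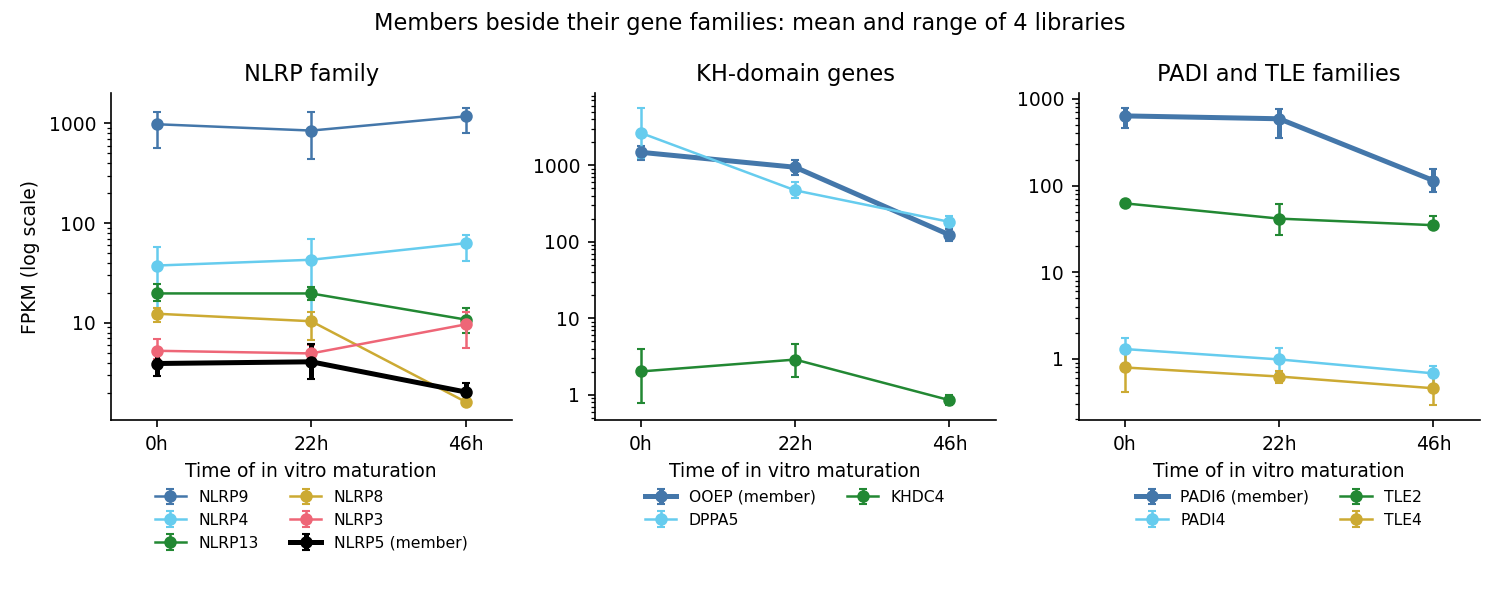
Mean FPKM (log axes, which differ between panels) at 0h, 22h and 46h for members (thick lines) and relatives in the NLRP, KH-domain, PADI and TLE families; bars show the lowest and highest of 4 libraries. NLRP9 stays between means of 847 and 1175 FPKM while NLRP8, like PADI6, falls after 22h, and PADI4 and TLE4 have means of 0.99 and 0.63 FPKM.

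PADI6 was the only PADI gene over the filter. PADI1 was listed at 0 in all libraries, PADI2 and PADI3 had means of 0.0017 and 0.025 FPKM, and PADI4 had 0.99 FPKM, so none entered the test. In the TLE family, 5 relatives of TLE6 were matched and only TLE2 was tested. Its mean of 62.4 ± 3.71 FPKM at 0h fell to 41.6 ± 14.2 at 22h (log2 fold change -0.63, adjusted p = 0.0356) and 34.9 ± 6.21 at 46h (-0.83 against 0h, adjusted p = 0.00334). Both calls were lost after median-of-ratios scaling (-0.58 at 22h and -0.44 at 46h) and quantile normalization (-0.54 and -0.31). The 22h call was also lost without the filter on low values, without mitochondrially encoded genes in TPM, in a fit of the 2 stages, and with any of 7 libraries left out, namely all of 0h and replicates 1, 2 and 4 of 22h (-0.66 to -0.45).

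DPPA5, a KH-domain relative of OOEP, was the other abundant gene of this group. Its 0h libraries held 1223.44, 1320.46, 2485.54 and 5524.63 FPKM, and its 22h libraries 610.36, 507.79, 378.23 and 380.90 FPKM. At 46h they held 186.04, 154.35, 171.56 and 215.89 FPKM, and no stage overlapped with another. The log2 fold change was -2.24 at 22h against 0h (adjusted p = 0.000578), -1.34 at 46h against 22h (adjusted p = 0.00884) and -3.58 at 46h against 0h (adjusted p = 1.24e-06). Replicate 4 of 0h was the highest library, and -3.13 remained at 46h against 0h without it. The change after 22h minus the change before it was 0.89 (adjusted p = 0.358). KHDC4 was low, with means of 2.03, 2.90 and 0.855 FPKM at 0h, 22h and 46h, and it was called only at 46h against 22h (-1.02, adjusted p = 0.00767). That call was lost after quantile normalization (-0.57). KHDC4 was called higher at 22h against 0h without replicate 4 of 0h (0.68), and lower at 46h against 0h without replicate 2 of 0h (-0.83) and as TPM (-0.73).

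Of the 22 listed lattice and partner genes, 17 were tested, and they moved both ways. At 46h against 0h 4 rose, 8 fell and 5 were not called. The counts were 5 higher and 6 lower after median-of-ratios scaling, and 6 and 6 after quantile normalization. On the log2(FPKM + 1) scale the largest falls were those of HSPA5, an endoplasmic reticulum chaperone, SLC8B1, a mitochondrial sodium-calcium exchanger, the tubulin gene TUBB4B and the actin-binding CFL2. HSPA5 was at 58.2 ± 19.6 FPKM at 0h, 57.1 ± 20.2 at 22h and 7.73 ± 1.37 at 46h (log2 fold change -2.72, adjusted p = 5.04e-07), and like PADI6 it fell after 22h. SLC8B1 and TUBB4B were at 8.37 ± 2.74 and 4.87 ± 0.364 FPKM at 0h and both were under 1 FPKM in all 46h libraries (-2.62 and -2.24). With a pseudocount of 0.1 these became -3.87 and -4.00, beyond HSPA5 at -2.85, so the order of these falls depends on the pseudocount. CFL2 fell from 11.4 ± 2.27 to 3.58 ± 0.993 FPKM (-1.45, adjusted p = 9.18e-06). Its change ran from -1.67 to -0.76 over the alternatives with all libraries, and it was called in each.

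UBE2D3, a lattice enzyme, went the opposite way to the members. It stood at 4119.23, 4026.82, 3138.50 and 1927.02 FPKM at 0h and at 6222.22, 7832.51, 7651.51 and 7649.01 at 46h, without overlap (1.21, SE 0.23, adjusted p = 0.000375). DNMT1, the maintenance DNA methyltransferase, named after its values were seen, fell from 14429 ± 4111 to 8553 ± 1333 FPKM (-0.73, adjusted p = 0.00592). It came under the fold threshold without replicate 4 of 0h (-0.55), the highest library at 20364.42 FPKM, and was not called after median-of-ratios scaling (-0.32). After quantile normalization the fall was larger (-1.11). UHRF1, its partner, had a mean of 0.456 FPKM and was not tested.

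**Figure D5:**
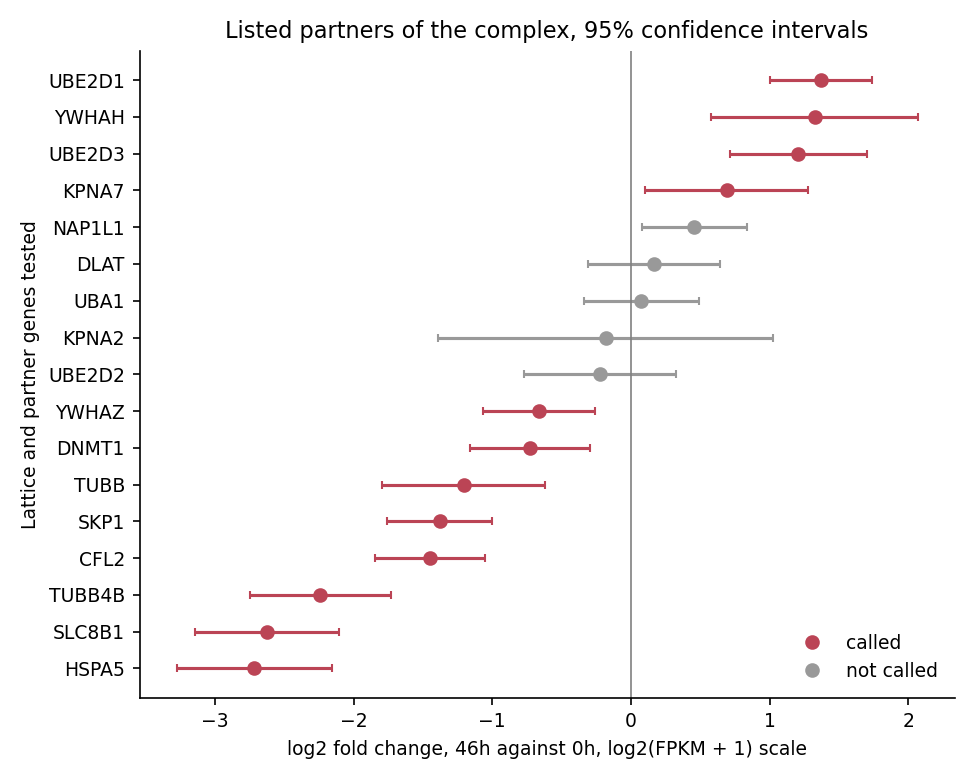
Log2 fold change at 46h against 0h (x axis, log2(FPKM + 1) scale) with its 95% confidence interval for the 17 tested lattice and partner genes (y axis); red points were called and grey points were not. With a pseudocount of 1, HSPA5 lies lowest at -2.72 and UBE2D1 highest at 1.37.

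Among 11 tested genes of other maternal-effect genes, 2 rose, 3 fell and 6 were not called at 46h against 0h. The counts were 3 higher and 3 lower after median-of-ratios scaling, and 3 and 2 after quantile normalization. ZAR1, an RNA-binding protein of the oocyte-to-embryo transition, had the largest fall, from 140 ± 60.6 FPKM at 0h to 23.9 ± 12.3 at 22h and 0.703 ± 0.312 at 46h (-6.30, adjusted p = 9.97e-10). CTCF fell by 1.05 (adjusted p = 0.000160) and BNC1 by 0.92 (adjusted p = 0.0133). Both calls were lost after quantile normalization (-0.36 and -0.30). BNC1 was not called without replicate 4 of 0h (-0.58), nor was WEE2, an oocyte kinase that was higher by 1.56 (adjusted p = 0.0406) with all libraries and by 0.86 without it (adjusted p = 0.113). The call of WEE2 was lost with any of 5 other libraries left out as well, namely replicate 3 of 0h, replicate 2 of 22h and replicates 2, 3 and 4 of 46h (adjusted p of 0.0505 to 0.0901), and without a filter (0.105) or as TPM (0.0656).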

How the data were processed

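The FPKM tables of 12 libraries were used as deposited. The authors trimmed reads with Trim Galore, checked them with FastQC, aligned them with STAR to the Sscrofa11 genome and quantified genes with RSEM, and the deposited FPKM values carry 2 decimals. The annotation release and read depth are not given in the sources used here, so precision is the spread over 4 libraries. The authors' HTSeq counts were not used here.

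Identifiers were named from a name table, which named 15029 of 31908, and 3 of 7 members and 62 of 75 related genes were matched. The 7013 genes whose 12-library mean reached 1 FPKM were fitted as log2(FPKM + 1) with limma 3.58.1 in R 4.3.3 (lmFit, eBayes with trend), with stage as the only factor over 12 libraries. P-values are two-sided and were adjusted by the Benjamini-Hochberg method across those 7013, and fold changes on this scale understate those of low genes. A call needed an adjusted p under 0.05 and a fold change over 1.5. Shares and ratios were tested by exact permutation. The code was tested on simulated data. Tables were made with Python 3.11.15.

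The members and lists were chosen with earlier results of these data known. Named were all members, from each list at most the 4 genes called in any comparison with the largest change at 46h against 0h, partners given as background, and the 3 named genes most like each member. NLRP4, NLRP9, DNMT1, UBE2D1 and genes given as low or listed at 0 fall outside this rule and were named after their values were seen. Sequences come from RefSeq Sscrofa11.1. Alternatives were quantile normalization, median-of-ratios scaling, TPM (also leaving out mitochondrially encoded genes), a pseudocount of 0.1, filters at 0 or 5 FPKM, eBayes without trend, a fit of 2 stages, a replicate block and the omission of each library. The late-minus-early contrast and the ratios were added after the data were seen.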

Additional observations from a re-analysis of the deposited data

Results flagged for a closer look

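Of 81 groups of 4 libraries examined (21 genes, 3 shares and 3 ratios at 3 stages), 3 had a library far from its group by Dixon's criterion, where chance gives about 1 in 20. None was an FPKM, share or ratio of the members. TLE2 stood at 44.19 FPKM in replicate 3 of 46h, against 31.19 to 32.78 in the other libraries. BNC1 stood at 6.40 FPKM in replicate 4 of 0h, against 1.64 to 2.37. UBE2D3 stood at 6222.22 FPKM in replicate 1 of 46h, against 7649.01 to 7832.51.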

How the results depend on the processing

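At 46h, 2 or 3 of the 3 members were called lower under every alternative and with any library left out. At 22h against 0h 0 members were called without a filter, as TPM without mitochondrially encoded genes and in a fit of 2 stages, and 0 to 1 with a library left out. Related genes called at 22h against 0h numbered 5 without a filter and 5 to 9 with a library left out. All genes called at 46h against 0h numbered 2546 with a mean of at least 5 FPKM, where fewer genes were tested and NLRP5 was not among them. At 46h against 0h quantile normalization turned NLRP5 to 0.0023 and KHDC4 to 0.00089. With a library left out, the change at 22h against 0h ran from -0.15 to 0.16 for NLRP5 and from -0.28 to 0.086 for PADI6. The cause was not tested. Left-out libraries moved the share of OOEP between -13.0 and -4.41 points at 22h against 0h and between -13.6 and -4.94 at 46h against 22h. For PADI6 these were 4.37 to 12.9 and 4.33 to 12.9 points, and for NLRP5 at 46h against 0h 0.592 to 0.806. The median change of all genes at 46h against 0h was -0.25 as deposited, 0.06 after median-of-ratios scaling and 0.34 after quantile normalization, and the calls were 1179 higher and 2743 lower, 2046 and 2312, and 2823 and 1902. At 46h against 22h they were 692 higher and 2283 lower, 1407 and 1793, and 1882 and 1508, and at 22h against 0h 550 and 1323, 667 and 1255, and 1024 and 1081. The same scalings turned the median of the lattice and partner genes from -0.22 to -0.00 and 0.01, and that of the other maternal-effect genes from -0.14 to 0.24 and 0.34. Nothing in the labels says that a replicate number marks a shared batch. Same-numbered deviations correlated between -0.466 and 0.0823 at 22h and 0h, and between -0.281 and 0.0845 at 46h and 0h. At 46h and 22h they correlated between 0.00884 and 0.381, where 3 of 4 pairs were over 0.1. Different-numbered deviations correlated there between -0.405 and 0.170. The numbers were not taken as pairs because the labels name no pairing, and where these correlations come from was not tested. With a replicate block 1, 3 and 3 members and 1801, 2933 and 3894 genes were called at 22h against 0h, 46h against 22h and 46h against 0h, and 7, 17 and 20 related genes. WEE2 lost its call at 46h against 0h (adjusted p = 0.0607). Without read counts, the precision of low transcripts such as NLRP5 cannot be judged from depth. TLE2 at 46h against 22h, not called in any of these, turned to 0.15 after median-of-ratios scaling and 0.23 after quantile normalization.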
